A study of Mus musculus with 4 samples.

Results

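The genes described here are 42 listed genes of mitosis and the spindle, chosen by symbol, with earlier results of these data known. They were looked up on arrays of mouse bone marrow, and 41 of the 42 had a transcript cluster, a probe set for 1 transcript region, of their own among the 30702 genes named on the array. Ccnb1, cyclin B1, had no cluster listed under its symbol and is not analysed here. The study has 4 arrays, 1 each for marrow of mice treated with Astragalus membranaceus (milkvetch root, below astragalus), with electro-acupuncture (current passed through acupuncture needles), or with the DNA-crosslinking platinum drug cisplatin, and for marrow of control mice. Tibial marrow was taken after 2 weeks of treatment, and 6 marrow samples were pooled for RNA extraction, per group as far as the design text can be read. Whether the astragalus and electro-acupuncture mice also received cisplatin, and their strain, age, sex and doses, are not stated in the labels. With 1 array per group no test was possible and no p-value is given. Each difference below is between 2 arrays, has no replicate check, and may hold the differences between mixed samples or between arrays as well as those between treatments.

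To divide, a cell activates the kinase CDK1 with its cyclins, builds a spindle of microtubules, attaches every chromosome to it through a kinetochore, and waits at a checkpoint until all are attached. The anaphase-promoting complex, a ubiquitin ligase, then marks cyclin B for destruction, the chromosomes separate, and a contractile ring divides the cell. The messenger RNAs of these proteins are made mainly in G2 and M phase, and in marrow they come largely from dividing red cell, granulocyte and early B cell precursors. In mixed marrow RNA, fewer dividing cells and less of these RNAs per cell cannot be told apart.

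Levels are log2 values as deposited, and a difference of 1 is 2-fold. All 41 genes lay above the level filter, a mean of 5.235 over the 4 arrays, and also above the stricter one at 6.63, so no gene entered through a high value in a single group. None reached the ceiling of 19.93 on any array. Mki67 came nearest to it, at 17.61 to 18.43, where differences may be compressed. The genes with single-gene clusters that passed the same filter numbered 17196, and they are the background against which counts are given. Of the defining marrow markers, 18 erythroblast genes had median levels of 11.94 to 12.68 over the arrays and 10 late neutrophil genes 16.61 to 17.27, with neutrophil genes at the ceiling on all 4 arrays. None of these was under the filter level, while 2 early B cell markers were in cisplatin and 1 osteoblast and stroma marker on every array. Brighter genes were higher on the astragalus array than on the others, and values with this level trend removed (loess, a smooth curve of difference on level) are given where they matter.

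The promoters of these genes are shown because genes of the late cell cycle share 2 short elements. TTTGAA is the core of the cell cycle genes homology region, through which DREAM and B-MYB-MuvB complexes act, and CCAAT is the box bound by NF-Y. RefSeq promoter windows of the GRCm38.p6 build, running from 250 bases before to 50 bases after the gene start, were matched by symbol to 35 of the 42 genes, Ccnb1 included, as 37 windows. TTTGAA was found on either strand in 29 of the 37 windows (78.4%), against 17.9% of all 32851 windows. CCAAT was found on either strand in 28 of the 37 (75.7%), against 37.4% of all, and both elements in 24 (64.9%), against 6.95% of all. A match is a description of letters and not a measured binding site.

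The 7 windows printed below belong to the genes on which the results turn, and capitals mark TTTGAA and CCAAT or their opposite-strand forms TTCAAA and ATTGG. Ube2c (chr2:164769679-164769978, plus strand), Cdk1 (chr10:69352863-69353162, minus strand) and Kif11 (chr19:37376132-37376431, plus strand) had the largest differences between astragalus and cisplatin. Ccnb2 (chr9:70421505-70421804, minus strand) and Plk1 (chr7:122159185-122159484, plus strand) were not lower in cisplatin than in control. Top2a (chr11:99024140-99024439, minus strand) and Anln (chr9:22389157-22389456, minus strand) had differences between cisplatin and control that were among the lowest of the 41 genes. In the Ube2c window a CCAAT and an ATTGG overlap, and they are counted as separate matches.
Ube2c: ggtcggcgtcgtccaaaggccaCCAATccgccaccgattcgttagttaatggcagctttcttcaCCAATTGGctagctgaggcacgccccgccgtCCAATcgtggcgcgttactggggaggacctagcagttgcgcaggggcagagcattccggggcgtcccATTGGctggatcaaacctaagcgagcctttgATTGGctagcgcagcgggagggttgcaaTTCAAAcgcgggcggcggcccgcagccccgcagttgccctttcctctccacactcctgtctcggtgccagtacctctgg
Cdk1: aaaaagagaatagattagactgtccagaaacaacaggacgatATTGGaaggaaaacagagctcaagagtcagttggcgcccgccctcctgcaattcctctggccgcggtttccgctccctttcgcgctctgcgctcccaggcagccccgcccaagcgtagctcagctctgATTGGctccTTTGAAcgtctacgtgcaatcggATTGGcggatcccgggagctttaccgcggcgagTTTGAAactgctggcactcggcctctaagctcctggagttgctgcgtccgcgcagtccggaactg
Kif11: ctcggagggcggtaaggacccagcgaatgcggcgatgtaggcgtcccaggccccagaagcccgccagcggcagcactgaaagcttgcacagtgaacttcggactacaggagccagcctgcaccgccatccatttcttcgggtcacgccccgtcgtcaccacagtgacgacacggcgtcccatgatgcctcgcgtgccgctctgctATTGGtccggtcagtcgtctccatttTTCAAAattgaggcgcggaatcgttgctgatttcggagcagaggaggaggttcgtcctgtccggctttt
Ccnb2: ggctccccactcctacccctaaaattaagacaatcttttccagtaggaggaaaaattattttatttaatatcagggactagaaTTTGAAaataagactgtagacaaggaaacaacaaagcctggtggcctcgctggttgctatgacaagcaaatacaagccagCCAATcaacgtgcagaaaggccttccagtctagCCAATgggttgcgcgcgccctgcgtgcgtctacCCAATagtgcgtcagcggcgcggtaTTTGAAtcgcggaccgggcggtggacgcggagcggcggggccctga
Plk1: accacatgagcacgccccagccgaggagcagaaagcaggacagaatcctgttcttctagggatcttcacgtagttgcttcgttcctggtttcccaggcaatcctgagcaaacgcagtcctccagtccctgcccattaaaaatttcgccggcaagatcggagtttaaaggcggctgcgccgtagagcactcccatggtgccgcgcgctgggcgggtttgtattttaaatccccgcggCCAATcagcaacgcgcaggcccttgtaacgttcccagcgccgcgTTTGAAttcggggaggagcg
Top2a: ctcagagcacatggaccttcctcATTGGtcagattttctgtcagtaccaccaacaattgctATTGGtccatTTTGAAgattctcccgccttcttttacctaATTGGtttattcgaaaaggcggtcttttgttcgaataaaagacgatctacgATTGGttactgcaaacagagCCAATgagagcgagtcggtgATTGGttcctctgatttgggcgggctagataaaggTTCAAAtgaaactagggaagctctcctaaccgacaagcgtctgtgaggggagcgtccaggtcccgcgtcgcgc
Anln: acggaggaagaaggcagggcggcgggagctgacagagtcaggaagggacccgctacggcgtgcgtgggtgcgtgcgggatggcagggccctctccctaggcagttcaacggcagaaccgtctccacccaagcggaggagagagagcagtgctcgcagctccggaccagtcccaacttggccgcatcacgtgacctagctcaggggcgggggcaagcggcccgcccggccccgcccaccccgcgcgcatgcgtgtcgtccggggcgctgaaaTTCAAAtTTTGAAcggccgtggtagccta
Of these 7, the Anln window alone held no CCAAT. Among the 34 measured genes with a window, the 27 with TTTGAA had median differences of 0.81 for astragalus minus cisplatin and -0.42 for cisplatin minus control. The 7 genes without it had medians of 0.73 and -0.47, and the ranges of the groups overlapped in both comparisons.

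Across the 41 genes the astragalus array was usually highest and the cisplatin array most often lowest, although the place of astragalus against control depended on scaling. Astragalus had the highest of the 4 levels in 39 of 41 genes, where 34.5% of all genes tested had theirs there. Cisplatin had the lowest level in 25 genes, against 21.2% of genes tested, and electro-acupuncture in 12, against 23.2%. Control was lowest in Ccnb2, Mad2l1 and Cdc20, against 32.5% of genes tested, and Plk1 was lowest in cisplatin and control alike. Incenp and Kif18a were highest in control, where 23.2% of genes tested were. After quantile normalization, which gives all arrays 1 distribution, astragalus was highest in 27 genes (26.8% of genes tested) and control in 12 (24.6%). Cisplatin was then lowest in 28 (20.1%), and electro-acupuncture in 9 (25.5%), near the share of all genes tested. The median level of the 41 genes was 10.61 in astragalus, 9.97 in electro-acupuncture, 9.57 in cisplatin and 10.00 in control.

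**Figure D1:**
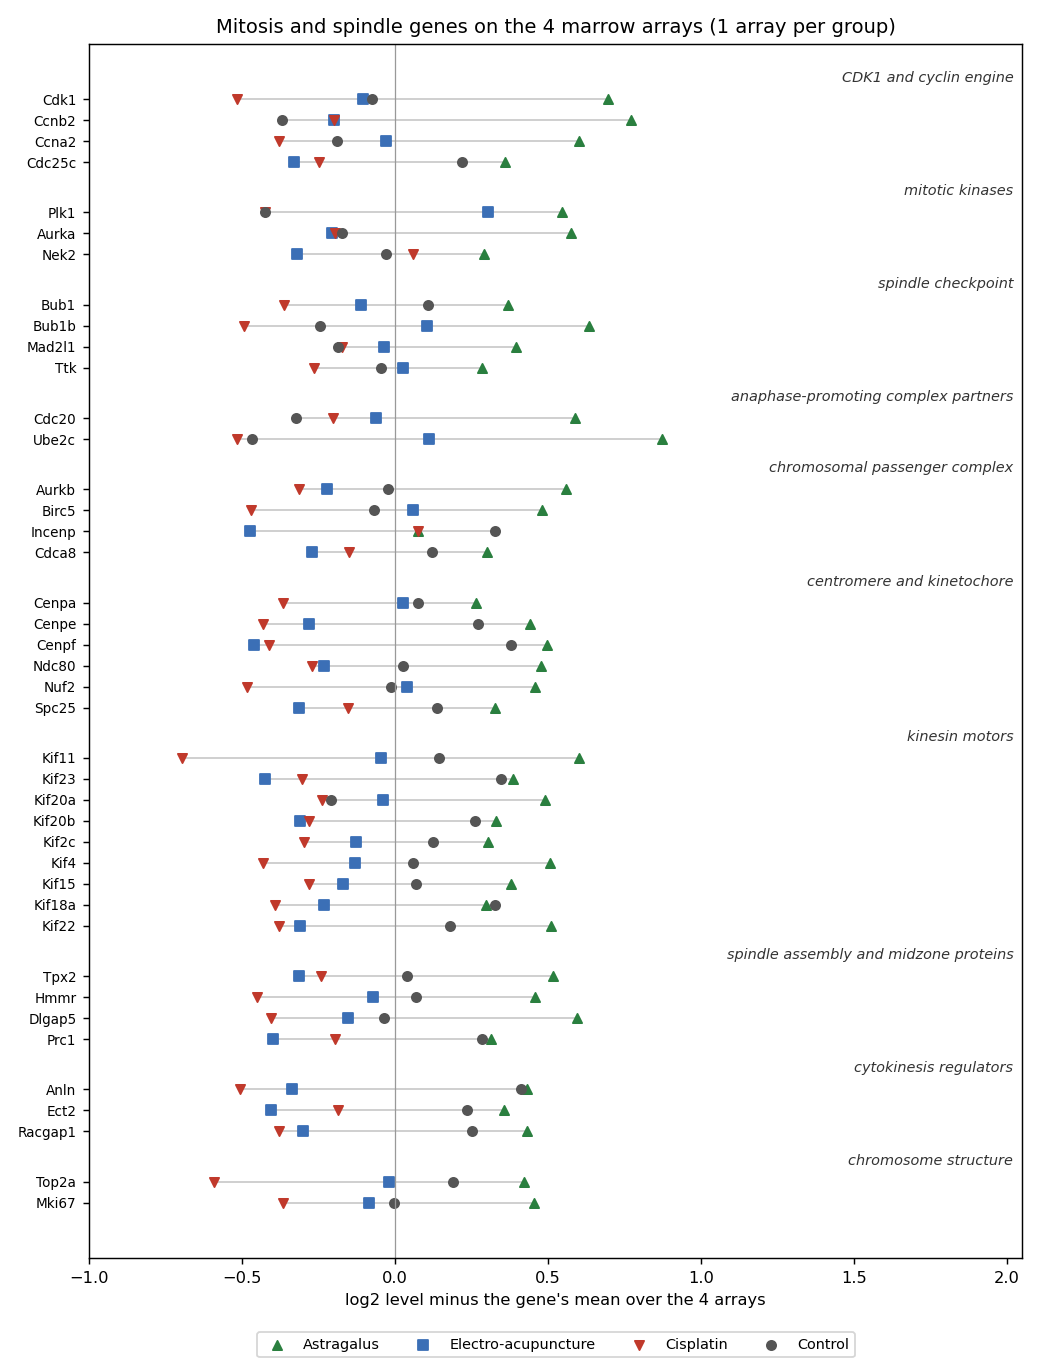
Each row is 1 of the 41 genes, grouped by role, and each symbol is its log2 level on 1 array minus the gene's mean over the 4 arrays. The green astragalus triangles lie furthest right in 39 rows, a count of 27 after quantile normalization, and the red cisplatin triangles lie furthest left in 25.

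The comparison of cisplatin with control asks how marrow after the drug differs in mitotic genes. Most were lower in cisplatin by small amounts: 36 of 41 were lower, 4 were higher and Plk1 was equal, where 46.9% of genes tested were lower and 50.6% higher. The median difference was -0.40, a 1.32-fold lower level, against 0.01 over all genes tested. No gene reached 2-fold in either direction, as 2.98% of genes tested did, but 9 lay below -0.55, the 5th percentile of genes tested, and none above the 95th. Genes of cytokinesis, chromosome structure and the kinesin motors had the largest median differences, and the kinases Plk1, Aurka and Nek2 and the partners of the anaphase-promoting complex had the smallest. The median was -0.42 after either loess or quantile normalization.

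Anln, which encodes anillin, a scaffold of the contractile ring, was at 10.19 in cisplatin and 11.11 in control, 1.89-fold lower, and 1.24% of genes tested had a lower difference. Its level in electro-acupuncture, 10.36, was close to that in cisplatin, and its level in astragalus, 11.13, was close to control. Racgap1, part of the centralspindlin complex that positions the ring, was at 7.99 in cisplatin and 8.62 in control (log2 difference -0.63). Ect2, the exchange factor that activates RhoA at the ring, was at 9.31 and 9.73 in the same order. The 3 cytokinesis genes had a median of -0.63, the lowest of the 10 role groups as deposited. With the loess trend removed it was -0.63 again, and the chromosome structure genes were lower, at -0.78.

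All 9 kinesin genes were lower, with a median of -0.54. Kif11, the motor that pushes the spindle poles apart, was at 12.09 in cisplatin and 12.93 in control, 1.79-fold lower. Kif18a, which damps chromosome movements at the spindle equator, was at 9.11 in cisplatin and 9.83 in control, and Kif23, the motor of centralspindlin, at 10.70 and 11.35. At the other end of the group Kif20a, a motor of the late spindle midzone, was at 7.77 in cisplatin and 7.80 in control. The remaining 5 kinesin genes, Kif20b, Kif2c, Kif4, Kif15 and Kif22, had differences of -0.35 to -0.56.

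The 6 centromere and kinetochore genes were all lower, with a median of -0.45. Cenpf, a large protein of the outer kinetochore, was at 10.03 in cisplatin and 10.82 in control, and the kinetochore motor gene Cenpe was at 10.96 and 11.66. Cenpa, the histone H3 variant that marks centromeres, had a difference of -0.44. The Ndc80 complex, which holds microtubule ends, had differences of -0.30 for Ndc80, -0.47 for Nuf2 and -0.29 for Spc25. Top2a, the topoisomerase that untangles sister chromosomes, was at 14.43 in cisplatin and 15.21 in control, 1.72-fold lower. Mki67, the proliferation antigen Ki-67 that coats mitotic chromosomes, was at 17.61 and 17.97.

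The chromosomal passenger complex, which corrects faulty attachments, was lower in all 4 genes within a narrow range, from -0.25 for its scaffold Incenp to -0.40 for Birc5 (survivin). Its kinase Aurkb was at 8.26 in cisplatin and 8.55 in control, and Cdca8 (borealin) at 9.48 and 9.75. The spindle assembly proteins Tpx2, Hmmr and Dlgap5 and the midzone crosslinker Prc1 were lower by differences of -0.28 to -0.52.

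The upstream regulators were less uniform. Cdk1 was at 9.56 in cisplatin and 10.00 in control (difference -0.44), Cdc25c, a phosphatase that activates it, at 8.04 and 8.51 (-0.47), and Ccna2, cyclin A2, at 13.05 and 13.24 (-0.19). Ccnb2, cyclin B2, was higher, at 11.20 in cisplatin and 11.03 in control (0.17). Plk1, a kinase of centrosome maturation and mitotic entry, was at 9.71 on both arrays, and Aurka, a kinase of spindle poles, at 9.56 in cisplatin and 9.58 in control. The other genes that were higher were Cdc20 (0.12), Nek2 (0.09) and Mad2l1 (0.01), all by less than 0.2. Among checkpoint genes Bub1 was at 9.50 in cisplatin and 9.97 in control, Bub1b at 9.57 and 9.82 and Ttk, the kinase MPS1, at 9.30 and 9.52.

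Most cell type marker lists differed between the same arrays, where 46.9% of genes tested were lower in cisplatin and 50.6% higher. Of the early B cell markers, 13 of 13 tested were lower in cisplatin, with a median difference of -1.32, and their summed level was 11.59 in cisplatin and 12.96 in control on the log2 scale. Of 14 early B cell markers with a cluster, 2 were under the filter level in cisplatin and none in control. Erythroblast markers were lower in 15 of 18, with a median of -0.24, and their summed level was 17.97 in cisplatin and 18.22 in control. Promyelocyte markers were higher in 9 of 10 (median 0.86, summed level 13.70 and 12.77), as were all 9 megakaryocyte markers (median 1.88) and 8 of 9 osteoblast and stroma markers (median 2.06). Late neutrophil markers, some at the ceiling, had a median of 0.00, with 4 higher, 2 lower and 4 equal. The part of these cells in the lower mitotic levels was not tested.

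**Figure D2:**
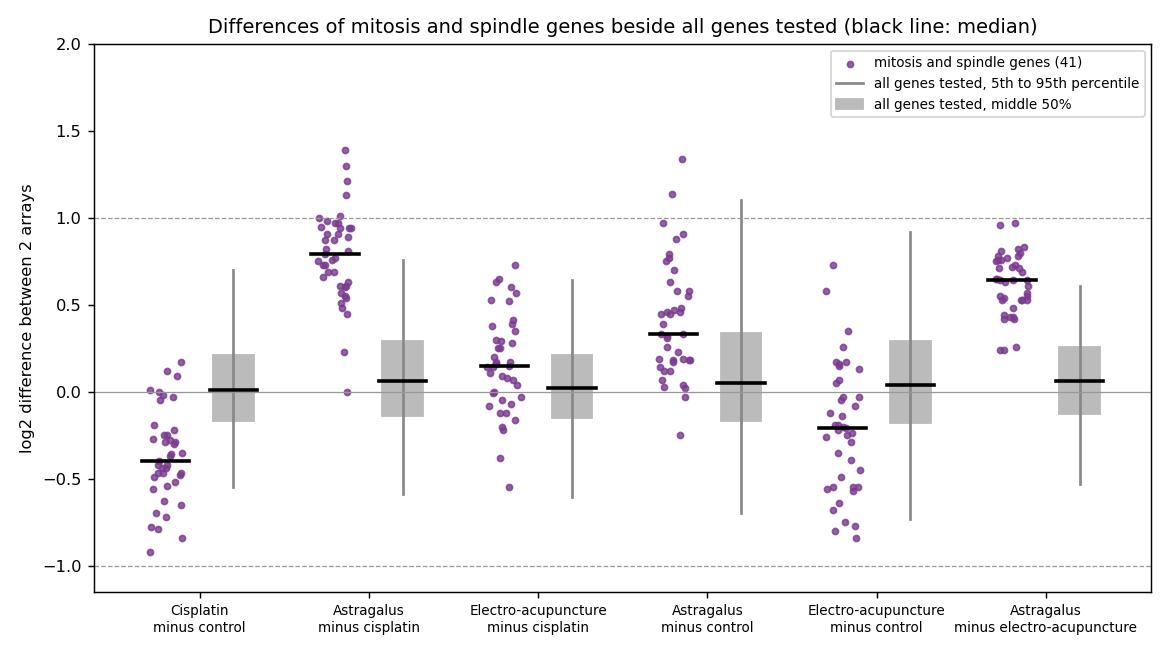
For each of the 6 comparisons, purple points are the log2 differences of the 41 genes, and the grey box and line show the middle 50% and the 5th to 95th percentile of all genes tested, with black lines at the medians and dashed lines at 2-fold. The medians of the 41 genes were -0.40 for cisplatin minus control and 0.79 for astragalus minus cisplatin, against 0.01 and 0.06 over all genes tested.

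The comparison of astragalus with cisplatin asks how the mitotic genes differ between marrow after the root and marrow after the drug. They were higher in astragalus almost throughout: 40 of 41 were higher and Incenp was equal, where 56.8% of genes tested were higher. The median difference was 0.79, a 1.73-fold higher level, against 0.06 over all genes tested. Ube2c, Kif11, Cdk1, Bub1b, Top2a and Dlgap5 were at least 2-fold higher, 6 of 41, where 2% of genes tested were. Part of this follows the level trend of the astragalus array. Among the 9226 genes above the stricter filter, as all 41 are, the median was 0.18, and with the loess trend removed the median of the 41 was 0.50, with 40 still higher (49.6% of genes tested), Incenp at -0.45 and only Ube2c at 2-fold.

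Ube2c, the ubiquitin-conjugating enzyme that serves the anaphase-promoting complex, was at 16.34 in astragalus and 14.95 in cisplatin, 2.62-fold higher. It was at 15.58 in electro-acupuncture and 15.00 in control, so that astragalus stood above the other 3 arrays and cisplatin was close to control. Its activator partner Cdc20 was at 8.53 in astragalus and 7.74 in cisplatin (0.79). These 2 genes gave the highest median of the role groups, 1.09.

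Cdk1 was at 10.77 in astragalus and 9.56 in cisplatin, 2.31-fold higher, and 0.832% of genes tested had a higher difference. Ccnb2 was at 12.17 in astragalus and 11.20 in cisplatin, Ccna2 at 14.03 and 13.05, and Cdc25c at 8.65 and 8.04. Astragalus was thus higher than cisplatin for each measured gene of the CDK1 engine, with a median of 0.98. A pseudogene, Ccnb2-ps, has a cluster of its own that stayed under the filter, at 4.44 in astragalus and 4.97 in cisplatin.

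Kif11 was at 13.39 in astragalus and 12.09 in cisplatin, 2.46-fold higher. The other 8 kinesin genes had differences between 0.60 (Kif2c, which removes tubulin from microtubule ends) and 0.94 (Kif4, a motor that binds chromosome arms). Kif22, a further motor on chromosome arms, was at 9.90 in astragalus and 9.01 in cisplatin, and Kif15, which helps to keep the spindle bipolar, at 11.07 and 10.41. The whole motor group was therefore higher in astragalus, by amounts that lay close together apart from Kif11.

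The checkpoint gene Bub1b was at 10.70 in astragalus and 9.57 in cisplatin, 2.19-fold higher, while Bub1 (0.73), Mad2l1 (0.57) and Ttk (0.55) had smaller differences. Top2a was at 15.44 in astragalus and 14.43 in cisplatin, and Mki67 at 18.43 and 17.61. Dlgap5, which stabilises fibres between spindle and chromosome, was at 11.15 in astragalus and 10.15 in cisplatin, exactly at 2-fold. Hmmr was at 11.70 and 10.79, Tpx2, which activates Aurora A on the spindle, at 11.43 and 10.67, and Prc1 at 12.65 and 12.14.

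Kinetochore genes were higher in astragalus by 0.48 (Spc25) to 0.94 (Nuf2). Cytokinesis genes were higher too, with Anln at 11.13 in astragalus and 10.19 in cisplatin, Racgap1 at 8.80 and 7.99, and Ect2 at 9.85 and 9.31. The smallest differences were those of Incenp, at 12.36 on both arrays, and of Nek2, a kinase that separates centrosomes, at 7.90 in astragalus and 7.67 in cisplatin. Incenp differed in this from the 3 genes of its complex, Birc5 (0.95), Aurkb (0.87) and Cdca8 (0.45). The kinases Plk1 and Aurka were at 10.68 and 10.33 in astragalus, against 9.71 and 9.56 in cisplatin.

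Erythroblast markers were higher in astragalus in 18 of 18, where 56.8% of genes tested were higher, with a median of 0.83. Their summed level was 18.80 in astragalus and 17.97 in cisplatin. With the level trend removed their median was 0.49, close to that of the mitotic genes. Early B cell markers were higher in 11 of 13 (median 0.40), with a summed level of 12.04 in astragalus and 11.59 in cisplatin. None of the 18 erythroblast markers was under the filter level on any array. Late neutrophil markers were higher in 8 of 10 (median 0.43) and promyelocyte markers in 7 of 10 (median 0.36). With the trend removed 6 of 10 and 5 of 10 were higher (medians 0.16 and 0.10), where 49.6% of genes tested were. The promyelocyte summed level was 14.46 in astragalus and 13.70 in cisplatin. Megakaryocyte markers had a median of -0.01, but with the trend removed 8 of 9 were lower (median -0.46). Osteoblast and stroma markers had a median of -1.13, and -1.29 with the trend removed. The part of these cells in the mitotic differences was not tested.

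The comparison of astragalus with control had a direction that depended on scaling. As deposited, 39 of 41 genes were higher in astragalus, where 55.3% of genes tested were and 42.8% were lower, and the median was 0.33 against 0.05 over all genes tested. Ube2c (2.53-fold) and Ccnb2 (2.20-fold) were at least 2-fold higher, 2 of 41, where 6.14% of genes tested were. Ube2c was at 16.34 in astragalus and 15.00 in control, Ccnb2 at 12.17 and 11.03, Plk1 at 10.68 and 9.71, Cdc20 at 8.53 and 7.62, Bub1b at 10.70 and 9.82, and Ccna2 at 14.03 and 13.24. The lower genes were Incenp, at 12.36 in astragalus and 12.61 in control, and Kif18a, at 9.80 and 9.83. With the loess trend removed the median was -0.02, with 20 genes higher (49.2% of genes tested) and 21 lower (50.8%) and none at 2-fold, and after quantile normalization it was 0.12. The genes that stayed higher with the trend removed included Ube2c (0.78), Cdc20 (0.72), Ccnb2 (0.67), Plk1 (0.62) and Bub1b (0.53). The lowest were Incenp (-0.78), Prc1 (-0.51), Kif23 and Anln (each -0.41). Erythroblast markers were higher in 16 of 18 (median 0.54, and 0.13 with the trend removed), with a summed level of 18.80 in astragalus and 18.22 in control. Early B cell markers were lower in 12 of 13 (median -0.81), with a summed level of 12.04 in astragalus and 12.96 in control. Promyelocyte, megakaryocyte and stroma markers had medians of 1.22, 1.87 and 1.22. The part of these cells was not tested.

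**Figure D3:**
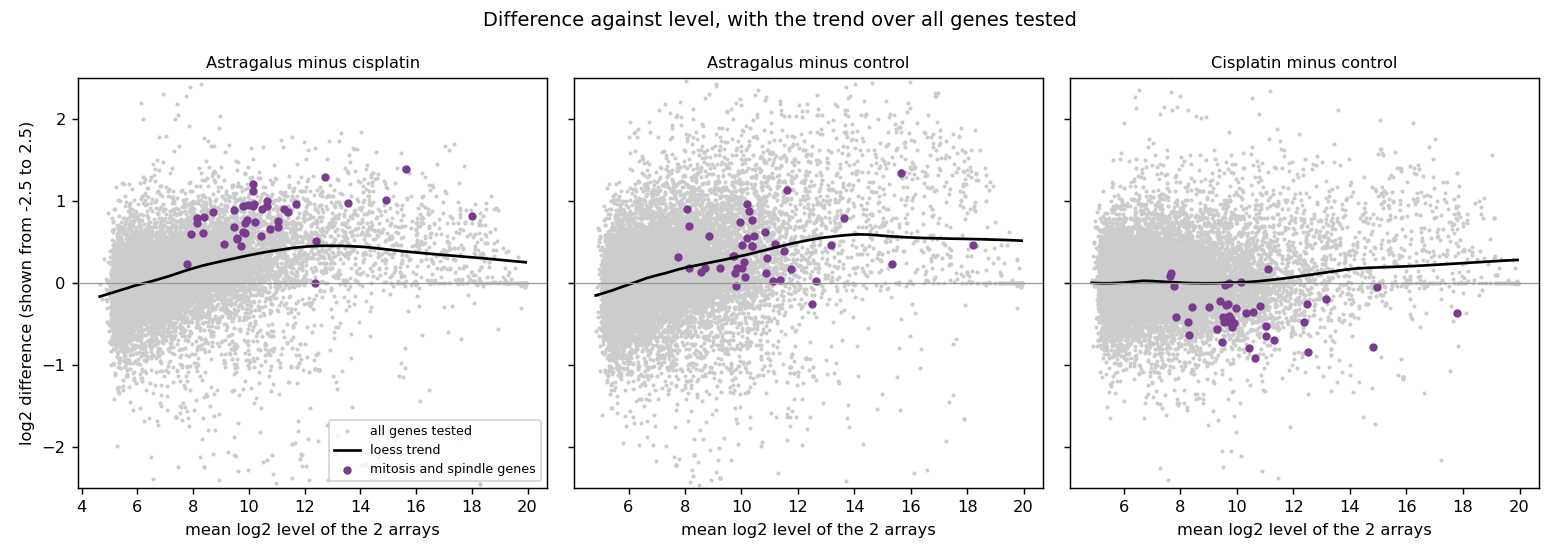
The log2 difference of each gene (vertical) is set against its mean log2 level on the 2 arrays (horizontal) for 3 comparisons, with all genes tested in grey, the loess trend as a black line and the 41 genes in purple. The purple points lie mostly above the trend for astragalus minus cisplatin (loess median 0.50), around it for astragalus minus control (-0.02) and mostly below it for cisplatin minus control (-0.42).

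Electro-acupuncture had mitotic levels between those of cisplatin and control at the median, with a spread between roles. Against cisplatin 28 of 41 genes were higher and 12 lower, with Ccnb2 equal, where 52.5% of genes tested were higher and 44.5% lower. The median was 0.15, against 0.02 over all genes tested, and no gene reached 2-fold, as 3.91% of genes tested did. With the loess trend removed the median was 0.08. Plk1 had the largest difference, at 10.44 in electro-acupuncture and 9.71 in cisplatin (0.73), followed by Kif11 at 12.74 and 12.09, Ube2c at 15.58 and 14.95, Bub1b at 10.17 and 9.57, Top2a at 15.00 and 14.43, and Birc5 at 10.04 and 9.51. Plk1 and Kif11, 2 of 41, were above the 95th percentile of genes tested, where 4.86% of genes tested were. The lowest was Incenp, at 11.81 in electro-acupuncture and 12.36 in cisplatin (-0.55), then Nek2 at 7.29 and 7.67, Ect2 at 9.09 and 9.31, Prc1 at 11.94 and 12.14, and Spc25 at 8.70 and 8.86. The other 7 lower genes, Cdc25c, Aurka, Cdca8, Cenpf, Kif23, Kif20b and Tpx2, differed by -0.01 to -0.12. Erythroblast markers had a median of 0.34 and early B cell markers one of 0.27 (0.22 and 0.26 with the trend removed). Osteoblast and stroma markers had a median of -1.35 and were lower in 7 of 9, where 44.5% of genes tested were lower. Promyelocyte, megakaryocyte and late neutrophil markers had medians of 0.18, 0.03 and 0.00. The part of these cells was not tested.

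Against control, electro-acupuncture was lower in 30 of 41 genes and higher in 11, where 44% of genes tested were lower and 53.7% higher. The median was -0.21, against 0.04 over all genes tested, and no gene reached 2-fold, as 7.27% of genes tested did. Cytokinesis genes were lower in all 3 cases, with a median of -0.64, with Anln at 10.36 in electro-acupuncture and 11.11 in control and Ect2 at 9.09 and 9.73. Cenpf was at 9.98 in electro-acupuncture and 10.82 in control, Kif23 at 10.58 and 11.35, Prc1 at 11.94 and 12.62, and Incenp at 11.81 and 12.61. Of the 10 role groups, the partners of the anaphase-promoting complex, the checkpoint genes and the CDK1 and cyclin genes had medians above 0, at 0.42, 0.11 and 0.06, the last of which turned to -0.11 with the loess trend removed. The mitotic kinases had a median of -0.03, with Aurka and Nek2 lower. The highest genes were Plk1 at 10.44 in electro-acupuncture and 9.71 in control, Ube2c at 15.58 and 15.00, Bub1b at 10.17 and 9.82, and Cdc20 at 7.88 and 7.62. The other 7 higher genes, Ccnb2, Ccna2, Mad2l1, Ttk, Birc5, Nuf2 and Kif20a, differed by 0.05 to 0.17. Erythroblast markers were higher in 11 of 18 (median 0.08), where 53.7% of genes tested were. With the loess trend removed 7 were higher and 11 lower (median -0.17). Early B cell markers were lower in 11 of 13, with a summed level of 11.84 in electro-acupuncture and 12.96 in control. Promyelocyte, megakaryocyte and stroma markers were higher in 7 of 10, 9 of 9 and 7 of 9 (medians 1.20, 1.91 and 1.49). The part of these cells was not tested.

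The 3 comparisons with control share that array, so their differences are set side by side and not correlated. For the cytokinesis genes the medians were 0.12 in astragalus, -0.64 in electro-acupuncture and -0.63 in cisplatin. For the kinesin motors they were 0.31, -0.25 and -0.54 in the same order, and for the centromere and kinetochore genes 0.19, -0.36 and -0.45. The CDK1 and cyclin genes had 0.78, 0.06 and -0.32, and the partners of the anaphase-promoting complex 1.12, 0.42 and 0.03. As deposited, the partners of the anaphase-promoting complex had the highest median and the cytokinesis genes the lowest for each treatment. With the loess trend removed this order held for electro-acupuncture only. In cisplatin the chromosome structure genes (-0.78) then lay below the cytokinesis genes (-0.63), and the mitotic kinases (-0.00) above the partners of the complex (-0.07). In astragalus the chromosome structure genes (-0.21) lay just below the cytokinesis genes (-0.20), and the kinesin and kinetochore medians turned to -0.10 and -0.11. Role groups hold 2 to 9 genes, and all 3 treatments are set against the same control array.

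**Figure D4:**
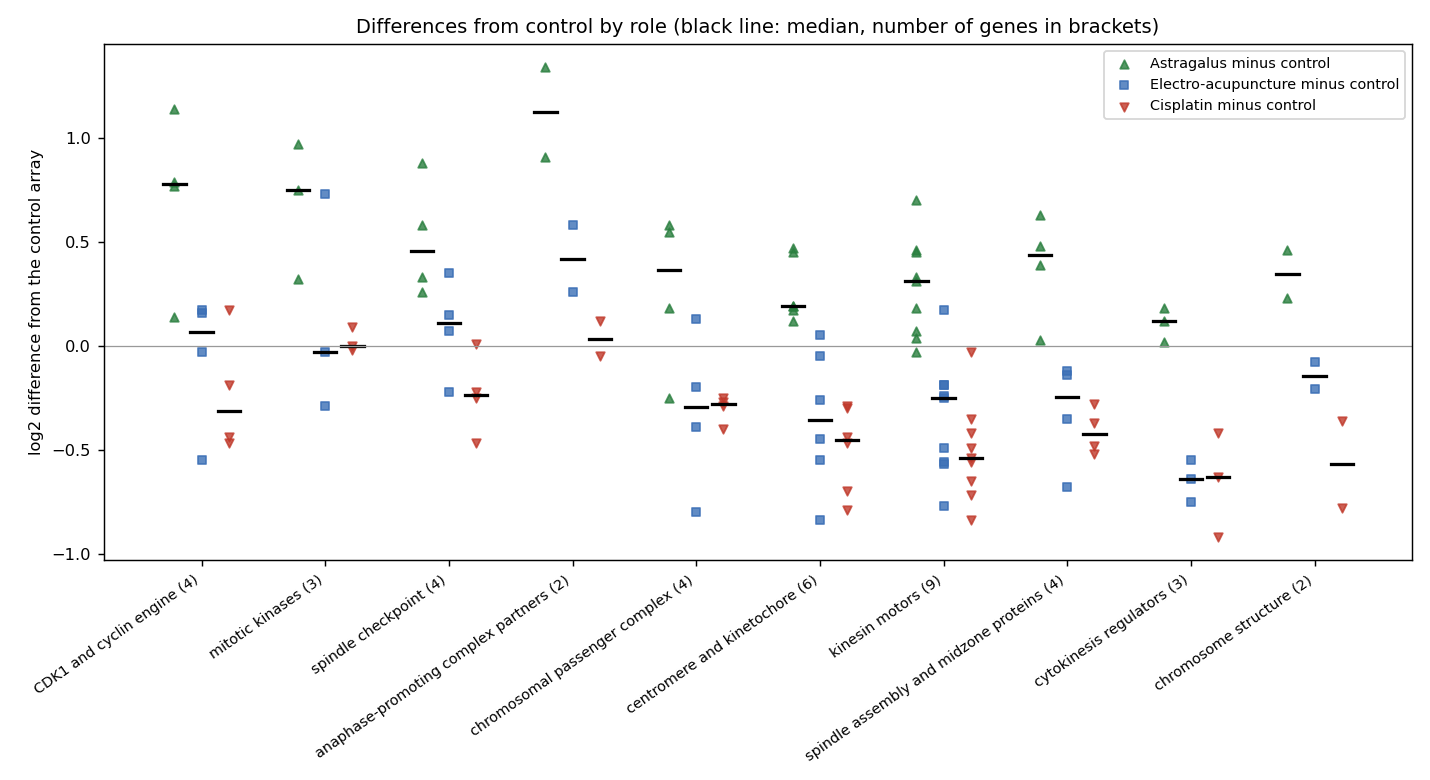
Points are the log2 differences of the 41 genes from the control array, by role, for astragalus (green), electro-acupuncture (blue) and cisplatin (red), with black lines at the medians. The anaphase-promoting complex partners had medians of 1.12, 0.42 and 0.03, and the cytokinesis regulators 0.12, -0.64 and -0.63. With the loess trend removed the astragalus median over all 41 genes was -0.02.

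Astragalus and electro-acupuncture were compared directly as well. All 41 genes were higher in astragalus, where 57.5% of genes tested were, with a median of 0.64 against 0.06 over all genes tested. The differences lay close together, from 0.24 to 0.97, and none reached 2-fold, as 1.53% of genes tested did, while 23 were above the 95th percentile of 0.61. Ccnb2 was at 12.17 in astragalus and 11.20 in electro-acupuncture, Cenpf at 10.94 and 9.98, Tpx2 at 11.43 and 10.60, Kif22 at 9.90 and 9.08, Kif23 at 11.39 and 10.58, and Cdk1 at 10.77 and 9.97. Plk1 (10.68 and 10.44), Cenpa (10.10 and 9.86) and Ttk (9.85 and 9.59) differed least. With the trend removed the median was 0.37 and 38 genes were higher (50% of genes tested), the other 3 being Plk1, Cenpa and Ttk at -0.07, -0.05 and -0.02. Erythroblast markers were higher in 18 of 18 (median 0.55, and 0.30 with the trend removed). Early B cell markers were higher in 8 of 13 (median 0.02), near the 57.5% of genes tested. With the trend removed 4 were higher and 9 lower (median -0.06), where 50% of genes tested were higher.

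Other genes of mitosis, a list of 96 outside the 42, were described to see how far the pattern extends, and 93 of them passed the filter. In cisplatin minus control 69 were lower and 23 higher, where 46.9% of genes tested were lower and 50.6% higher. The median was -0.21 and none was at 2-fold, as 2.98% of genes tested were. The lowest were Ska2 and Aspm (kinetochore and spindle pole proteins) and Ckap2, at -0.80, -0.75 and -0.67, and the highest Cenpw, Psrc1 and Cks2, at 0.83, 0.52 and 0.47. In astragalus minus cisplatin 86 were higher and 7 lower, where 56.8% of genes tested were higher, with a median of 0.41. Of these, 5 were at least 2-fold higher, where 2% of genes tested were. They were led by the cohesin subunit gene Rad21 (14.83 in astragalus and 13.76 in cisplatin), Kif14 (10.82 and 9.76) and Ckap2 (9.64 and 8.60). The lowest were Cenpw (-0.40), Psrc1 (-0.25) and the checkpoint gene Mad1l1 (-0.14). Medians by subgroup for astragalus minus cisplatin ran from 0.32 for 4 activators of mitotic genes and 0.34 for 22 further kinetochore genes to 0.73 for condensin, whose 8 genes were all higher. With the trend removed the median of the 93 was 0.15 and 76 were higher, where 49.6% of genes tested were.

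Genes of DNA replication and its nucleotide supply, which act earlier in the cycle, had a different median in the comparison of cisplatin with control. Of 25 tested, 15 were lower and 10 higher, where 46.9% of genes tested were lower and 50.6% higher. The median was -0.03, against -0.40 for the 41 mitotic genes. In astragalus minus cisplatin 24 of 25 were higher, where 56.8% of genes tested were, with a median of 0.64. With the loess trend removed 20 were higher, where 49.6% of genes tested were, with a median of 0.35. In electro-acupuncture minus control 20 were higher, where 53.7% of genes tested were, with a median of 0.21, and 0.15 with the trend removed. A list of CDK inhibitors and pocket proteins, which restrain the cycle, also holds the transcription factors E2f4 and E2f5, partners of pocket proteins. Of its 10 genes tested, 6 were lower in cisplatin than in control and 4 higher, where 46.9% of genes tested were lower. The median was -0.05 over members that went both ways. Cdkn1a, the CDK inhibitor p21 that p53 induces, was at 8.76 in cisplatin and 6.64 in control, 4.35-fold higher and the list's only gene at 2-fold. Cdkn1b (-0.76), Cdkn2c (-0.73) and Rb1 (-0.72) were the lowest, and these 4 genes were chosen after their values were seen. In astragalus minus cisplatin 7 of the 10 were higher, where 56.8% of genes tested were, with a median of 0.27. With the loess trend removed 6 were higher and 4 lower, with a median of 0.04. Cdkn1a was at 8.03 in astragalus and 8.76 in cisplatin. Whether replication and mitotic genes differ in their response was not tested, because there is 1 array per group.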

How the data were processed

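Bone marrow RNA of 4 groups was measured on 1 Affymetrix array each. The deposited values are log2 levels per transcript cluster, made by the authors with Affymetrix Expression Console per the submitters' processing notes, without a stated version, summary method or normalization. Scale was read from the values (2.70 to 19.93). Clusters were named through the platform's gene table, with symbols updated by a RefSeq table of GRCm38.p6. Of 65956 clusters, 31258 carried 1 gene and 1492 several, and clusters with several were not used. Each gene took its cluster of highest mean, and genes with a mean of at least 5.235, the median of all clusters, were compared.

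A difference is one array's log2 level minus another's, counted at an absolute value of 1. The number of arrays, 1 per group, limits the precision, and differences near the ceiling may be compressed. Quantile normalization, a loess trend (span 0.3), other filters and the mean of clusters were alternatives. Summed levels are sums of linear values, written as log2. Steps were tested on simulated data, with Python 3.11.15, pandas 2.3.3 and statsmodels 0.14.6. The genes and lists were chosen with earlier results of these data known. Named genes are up to 6 with the largest differences in each direction per comparison, examples of each role, genes against the majority and the 3 largest in each direction of the other mitotic list.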

Additional observations from a re-analysis of the deposited data

How the results depend on the processing

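Of 90 values recomputed under 5 alternatives, 77 stayed within 0.1 (medians, log2) or 1.5 times (counts) of those reported. All medians and counts of the 41 genes were equal with no filter on low values, with the filter at the 75th percentile and with the mean of a gene's clusters, since every gene has 1 cluster and lies above both filters. Scaling moved the comparisons that involve the astragalus array. Its difference from cisplatin had a median of 0.61 after quantile normalization, with 3 genes at 2-fold (Cdk1, Ube2c and Kif11), and 0.50 after loess, with 1 (Ube2c). Its difference from electro-acupuncture had medians of 0.44 and 0.37. Its difference from control had a median of 0.12 after quantile normalization, with 0 genes at 2-fold, and turned to -0.02 after loess, with 20 genes higher and 0 at 2-fold. In cisplatin minus control 1 gene was at 2-fold after quantile normalization (Anln), and in electro-acupuncture minus control 1 after loess (Incenp). Among all tested genes that reached 2-fold, 51.0% were higher in the deposited values, 33.7% with quantile normalization and 22.7% with loess for astragalus minus cisplatin, 69.6%, 58.8% and 47.4% for astragalus minus control, and 43.0%, 27.7% and 22.4% for astragalus minus electro-acupuncture. The loess curve takes off any true difference that follows level as well. No paired analysis was possible because each group has 1 array. No replicate could be left out for the same reason.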
